A study of Mus musculus with 9 samples.

Results

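The 37 genes described here mark macrophages and the wider myeloid lineage, and their levels were followed in 9 whole tumors grown from NB9464, a mouse neuroblastoma line with amplified MYCN. They were chosen by symbol from a count table of 54429 gene symbols, by a rule that uses no measured value. Earlier results of these data were known when the list was chosen. All 37 were found in the table and 35 had enough counts to be tested among 15931 genes. The 2 that were not tested, Vsig4 and Clec9a, had between 0 and 20 counts in each tumor.

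Macrophages in a tumor develop largely from blood monocytes and persist under signals from CSF1, which acts through the receptor encoded by Csf1r. Their identity rests on the transcription factor PU.1, the product of Spi1, together with C/EBP alpha and IRF8, and mature cells carry large amounts of lysosomal enzymes, lysozyme and the subunits of the phagocyte NADPH oxidase. In neuroblastoma they are a regular part of the tumor, where they have been studied as a source of immune suppression. R788 (fostamatinib) is an oral prodrug that inhibits Syk, a kinase used by Fc and other immune receptors of myeloid cells.

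The 9 tumors were grown under the skin of wild-type C57BL/6 mice, aged 4 to 6 weeks at injection by the study's methods from injected NB9464 cells. Treatment started at a tumor volume of 250 mm3. 3 groups of 3 tumors were compared. One received vehicle, the next R788 + anti-PDL1, and the last Rad + R788 + anti-PDL1, called irradiated below. R788 was given at 50 mg/kg 5 times a week and the anti-PDL1 antibody (clone 10F.9G2) 4 times a week, and the irradiated tumors received 10 Gy of radiation on top of both agents. By the series text, dosing fell on 4 days (28, 31, 34 and 37). No group received radiation alone, and NB9464 is 1 transplanted line. The labels do not say whether the 3 tumors of a group came from separate mice, so the p-values below measure the spread between these samples.

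The libraries held 18276683 to 23397886 counts. Levels are given as CPM, the counts per 1000000 counts of the library, after scaling each library by its TMM factor, and 3 counts, the number that a count of 0 allows, corresponded to 0.115 to 0.221 CPM for counting error alone. Of the neuroblast markers, Th had 0 counts in every tumor, and Dbh, Phox2a, Chga and Chgb reached at most 15 counts, whereas Hand2 had at least 6545 counts and Mycn at least 1265 counts in every tumor. The tumors thus carried Mycn and Hand2, with the catecholamine-synthesis genes that define differentiated neuroblasts at or near 0. Irradiated tumor 1 stood apart from the other libraries. Its TMM factor was 0.743 against 0.975 to 1.12, its mitochondrial share was 1.97% against 3.48% to 5.71%, and its log2 CPM correlated with the others across genes, which are not independent replicates, at r = 0.865 to 0.907. Values without this tumor are given beside the results that rest on it.

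The start regions of the genes were read first, since PU.1 is the factor shared by the lineage. The RefSeq table held windows of 300 bases (250 before to 50 after the start, GRCm38.p6) for 28 of the 37 genes, 36 windows in all. The letters GAGGAA, a core that PU.1 recognises, were found on either strand in 19 of the 36 windows (52.8%), belonging to 17 genes, against 28.3% of all 32851 windows. The letters TTGCNNAA, a form of the C/EBP site, were in 3 windows (8.33% against 10.8%). The ETS-IRF composite (GGAA, any 2 bases, then GAAA), bound by both kinds of factor together, were in 5 windows of 4 genes (13.9% against 2.72%), and in 2 of the windows the PU.1 core overlapped the composite. These are matches of letters, and no binding was measured. Below are the 250 bases before the start of 5 genes whose values are described later, Aif1, Cd68, Ctss, Stab1 and Spp1, with the PU.1 core on either strand in capitals (TTCCTC is its reverse complement). They are shown because the core lay within 250 bases before the start in each, and because their fitted levels in treated tumors lay in opposite directions.
Aif1 promoter (chr17:35176053-35176302, minus strand): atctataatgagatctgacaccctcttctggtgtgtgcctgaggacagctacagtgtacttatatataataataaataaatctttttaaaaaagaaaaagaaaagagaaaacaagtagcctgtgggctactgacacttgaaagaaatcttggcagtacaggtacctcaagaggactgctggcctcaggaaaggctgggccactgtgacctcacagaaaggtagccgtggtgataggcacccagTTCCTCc
Cd68 promoter (chr11:69666171-69666420, minus strand): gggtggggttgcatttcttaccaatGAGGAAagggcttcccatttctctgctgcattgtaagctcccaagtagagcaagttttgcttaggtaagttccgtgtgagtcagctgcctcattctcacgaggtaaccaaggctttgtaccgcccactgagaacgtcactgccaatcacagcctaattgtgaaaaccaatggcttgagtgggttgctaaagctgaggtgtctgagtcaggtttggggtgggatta
Ctss promoter (chr3:95526536-95526785, plus strand): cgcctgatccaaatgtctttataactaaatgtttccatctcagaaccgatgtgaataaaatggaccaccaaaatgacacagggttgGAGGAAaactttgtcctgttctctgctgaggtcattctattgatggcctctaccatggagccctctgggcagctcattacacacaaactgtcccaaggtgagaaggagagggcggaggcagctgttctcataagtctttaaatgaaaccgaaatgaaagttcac
Stab1 promoter (chr14:31168642-31168891, minus strand): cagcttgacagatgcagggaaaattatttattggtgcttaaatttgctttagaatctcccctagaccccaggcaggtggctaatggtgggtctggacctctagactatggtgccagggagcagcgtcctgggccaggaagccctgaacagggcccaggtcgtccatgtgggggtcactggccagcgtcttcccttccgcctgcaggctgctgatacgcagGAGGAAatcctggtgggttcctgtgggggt
Spp1 promoter (chr5:104434861-104435110, plus strand): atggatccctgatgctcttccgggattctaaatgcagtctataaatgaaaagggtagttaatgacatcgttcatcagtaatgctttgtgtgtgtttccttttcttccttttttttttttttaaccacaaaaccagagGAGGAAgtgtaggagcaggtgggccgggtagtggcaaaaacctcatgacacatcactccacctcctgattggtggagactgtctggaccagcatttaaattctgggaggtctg
The core ended next to the start in Aif1, was near it in Stab1, and lay farther upstream in the rest. The 5 genes were chosen for carrying the core, so its presence in both Spp1 (fitted level lower in treated tumors) and Aif1 (higher) is not a result. The other Spp1 window did not hold it.

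Compared per length of annotated exon, the most abundant of the 37 genes were Apoe, which encodes the lipid carrier apolipoprotein E, and Lyz2, which encodes the lysozyme of macrophages and neutrophils, with mean levels over the 9 tumors of 192 and 191 CPM per kb. Hmox1 (heme oxygenase 1) followed at 72.7 CPM per kb, then Ctss (cathepsin S, a lysosomal protease) at 45.6, Cd68 (a lysosomal membrane glycoprotein) at 30.5, Spp1 (osteopontin) at 27.3 and Laptm5 (a lysosomal membrane protein of leukocytes) at 18.7 CPM per kb. Spi1 was the most abundant of the 4 lineage transcription factors, at 5.21 CPM per kb. At the other end stood the dendritic cell genes Flt3 and Clec9a, at 0.0556 and 0.0901 CPM per kb. Apoe, Hmox1, Spp1, Gpnmb and Stab1 are also made by other cells, such as fibroblasts, endothelium or tumor cells, and bulk RNA does not separate these sources.

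The 37 genes as a group had a clear order among the tumors. The median of the tested genes, on the log2 CPM scale centred on each gene's mean, was -0.07, -0.87 and -0.68 in vehicle tumors 1 to 3, 0.33, 0.25 and 0.30 in the R788 + anti-PDL1 tumors, and -0.71, -0.66 and 1.62 in the irradiated tumors. By this median the R788 + anti-PDL1 tumors lay close together and above the vehicle tumors. The irradiated group held 2 tumors with a median at the vehicle level and 1 far above every other tumor. Of the former, irradiated tumor 1 had 13 members above and 15 below the vehicle range (37.1% and 42.9%), close to the 39.0% and 43.0% of all genes. In a bulk sample, fewer cells of a type and less RNA per cell cannot be told apart, and this holds for every value below.

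**Figure D1:**
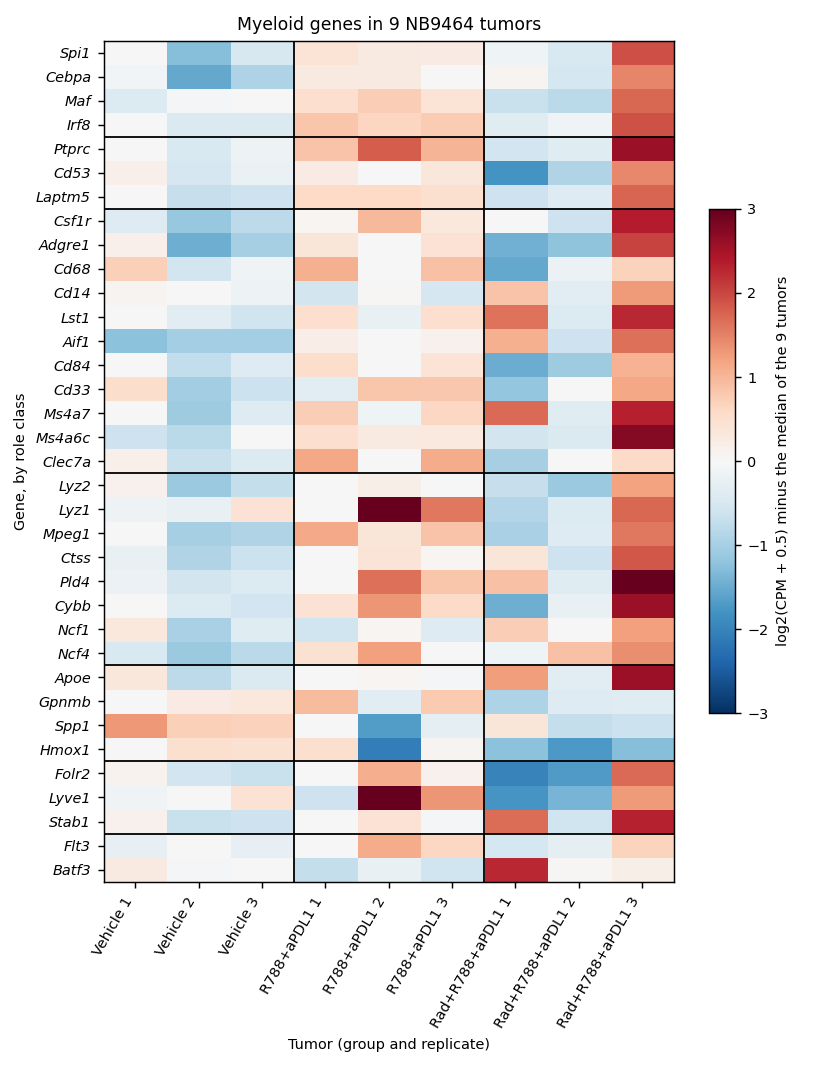
Heat map of the 35 tested myeloid genes (rows, by role class, separated by lines) in the 9 tumors (columns). Colour is log2(CPM + 0.5) minus the median of the 9 tumors, cut at 3 in either direction. Irradiated tumor 3 is the highest tumor for 26 of the 35 genes, the R788 + anti-PDL1 columns are mostly above the median, and Spp1 and Hmox1 run against the other rows.

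The first comparison set the R788 + anti-PDL1 tumors against vehicle, that is, the combination without radiation in large tumors. No member passed the test (edgeR quasi-likelihood, Benjamini-Hochberg adjusted p under 0.05 over all genes), where 0.678% of all genes did, and the lowest adjusted p among the members was 0.230. At an unadjusted p under 0.05 there were 5 members higher and 1 lower, against 5.96% and 5.69% of all genes. DESeq2 called 1 of the 33 members to which it gave an adjusted p, Ncf4 (adjusted p = 0.0331), where it called 4.02% of the genes it tested. Ptprc, Adgre1, Ms4a6c and Folr2 got no adjusted p from DESeq2 in any comparison. With limma-voom 0 members were called, where it called 0.697% of all genes. In direction, 30 of the 35 had a higher fitted level in R788 + anti-PDL1 tumors, against 48.4% of all genes, with a median log2 fold change of 0.87 (1.83-fold) against -0.02 for all genes. All 3 treated tumors lay above all 3 vehicle tumors for 15 members, where 13.6% of all genes did so, and below them for 2, where 16.5% did. When the fit was restricted to these 6 libraries, which leaves out the spread of the irradiated group, 5 members passed the test, namely Ptprc, Laptm5, Aif1, Irf8 and Mpeg1, with adjusted p-values from edgeR between 0.0346 and 0.0479, where 3.84% of all genes did. The median ranged from 0.69 without vehicle tumor 2 to 1.24 without vehicle tumor 1 when single tumors were left out.

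All 4 lineage transcription factors lay above the vehicle range in every R788 + anti-PDL1 tumor. Spi1 (ENSMUSG00000002111.8, chromosome 2, 91082390 to 91115756, plus strand) stood at 11.1, 4.31 and 7.84 CPM in the vehicle tumors, 14.8, 13.4 and 13.2 CPM in the R788 + anti-PDL1 tumors, and 10.2, 7.92 and 43.6 CPM in the irradiated tumors. The R788 + anti-PDL1 values were tightly grouped above the vehicle values, and only irradiated tumor 3 exceeded them. The fitted log2 fold change against vehicle was 0.83 ± 0.61 (SE; edgeR, adjusted p = 0.686). For Cebpa, Maf and Irf8 the log2 fold changes were 0.99, 0.70 and 1.10. Maf is a factor of mature macrophages and Irf8 one of monocytes and dendritic cells. Irf8 was at 6.29, 4.49 and 4.55 CPM in vehicle, 11.7, 10.2 and 11.1 CPM in R788 + anti-PDL1, and 4.79, 5.68 and 24.9 CPM in irradiated tumors, of which tumors 1 and 2 were within the vehicle range.

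Of the 3 pan-leukocyte membrane genes, Laptm5 (ENSMUSG00000028581.17, chromosome 4, 130913125 to 130936141, plus strand) was the most abundant per length. Its level was 55.6, 34.3 and 36.0 CPM in the vehicle tumors, 84.5, 84.2 and 77.4 CPM in the R788 + anti-PDL1 tumors, and 36.1, 42.4 and 187 CPM in the irradiated tumors. The first 2 groups did not overlap, and the third spanned both. The log2 fold change of R788 + anti-PDL1 over vehicle was 0.97 ± 0.56 (adjusted p = 0.574). Ptprc, which encodes CD45, the phosphatase carried by all leukocytes, was at 11.1, 7.95 and 9.92 CPM in vehicle tumors, 20.5, 40.5 and 22.8 CPM in R788 + anti-PDL1 tumors, and 7.23, 8.52 and 68.8 CPM in irradiated tumors, a 2.90-fold fitted difference of R788 + anti-PDL1 over vehicle (adjusted p = 0.502). Irradiated tumor 3 was the highest, and the other two irradiated tumors were near the lowest vehicle tumor. Cd53, a leukocyte tetraspanin, averaged 12.6 ± 2.88 and 16.3 ± 2.04 CPM (SD, n = 3).

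CD45 is not confined to myeloid cells, and the markers of other leukocytes were read beside it. The summed level of 5 mast cell markers (Cpa3, Mcpt4, Ms4a2, Fcer1a and Tpsb2) was 0.898 to 9.72 CPM in vehicle tumors, 39.2 to 59.8 CPM in R788 + anti-PDL1 tumors and 4.11 to 8.92 CPM in irradiated tumors, and all 5 markers lay above vehicle without overlap, though 0 of 5 passed the test (lowest adjusted p = 0.1003). The 9 T cell markers summed to 3.46 to 8.67, 15.7 to 30.3 and 6.49 to 44.4 CPM in the same order of groups, and the 5 NK cell markers to 0.658 to 1.88, 3.17 to 9.21 and 1.52 to 9.32 CPM. Among the T cell markers Cd3e was at or under 0.274 CPM in all tumors but irradiated tumor 3 (2.47 CPM), and Cd4, which macrophages and monocytes also express, made up most of the sum in R788 + anti-PDL1 tumors 1 and 3. The part of these cells in the Ptprc difference was not tested.

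Among the 11 surface and identity genes, 10 had higher and 1 (Cd14, the lipopolysaccharide co-receptor) a lower fitted level in R788 + anti-PDL1 tumors. Aif1 (ENSMUSG00000024397.14, chromosome 17, 35170991 to 35176068, minus strand), which encodes the calcium-binding protein Iba1 used to stain macrophages, stood at 1.77, 2.11 and 2.08 CPM in vehicle tumors, 5.51, 4.78 and 5.29 CPM in R788 + anti-PDL1 tumors, and 10.5, 2.94 and 16.1 CPM in irradiated tumors. Every treated tumor of either group lay above every vehicle tumor, and no other member except Ncf4 showed this in both comparisons. The log2 fold change was 1.38 ± 0.53 for R788 + anti-PDL1 (adjusted p = 0.342) and 2.30 ± 0.54 for the irradiated group (adjusted p = 0.174), both against the same vehicle tumors. Csf1r, the CSF1 receptor on which macrophages depend, averaged 23.6 ± 6.25, 56.5 ± 19.4 and 89.5 ± 98.7 CPM in the 3 groups. Adgre1, which encodes F4/80, averaged 14.95 ± 9.39, 28.0 ± 4.44 and 37.8 ± 50.0 CPM. The other members of this class, Cd84, Cd33, Ms4a7, Ms4a6c and Clec7a (the beta-glucan receptor dectin-1, annotated as a polymorphic pseudogene), had log2 fold changes between 0.71 and 1.17 over vehicle in R788 + anti-PDL1 tumors and between 0.28 and 2.14 in irradiated tumors. The highest of these was Ms4a7, at 5.58, 2.38 and 4.17 CPM in vehicle, 9.70, 5.04 and 8.85 CPM in R788 + anti-PDL1, and 19.2, 4.21 and 29.9 CPM in irradiated tumors. Irradiated tumor 2 was within the vehicle range for it.

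Cd68 (ENSMUSG00000018774.13, chromosome 11, 69664213 to 69666153, minus strand) was the most abundant of this class per length but did not follow it. It measured 51.4, 21.2 and 29.0 CPM in vehicle tumors, 65.7, 31.2 and 58.0 CPM in R788 + anti-PDL1 tumors, and 10.5, 27.5 and 50.7 CPM in irradiated tumors. The groups overlapped throughout, and R788 + anti-PDL1 tumor 1 held the highest level. Its log2 fold change was 0.61 ± 0.54 for R788 + anti-PDL1 and -0.19 ± 0.54 for the irradiated group (adjusted p = 0.743 and 0.872). Lst1, a small membrane protein of leukocytes, was near 1 CPM in vehicle tumors. Its values were 1.33, 0.943 and 0.712 CPM in vehicle, 2.07, 1.07 and 2.09 CPM in R788 + anti-PDL1, and 5.16, 0.863 and 8.31 CPM in irradiated tumors, so that irradiated tumors 1 and 3 were high and irradiated tumor 2 was within the vehicle range.

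**Figure D2:**
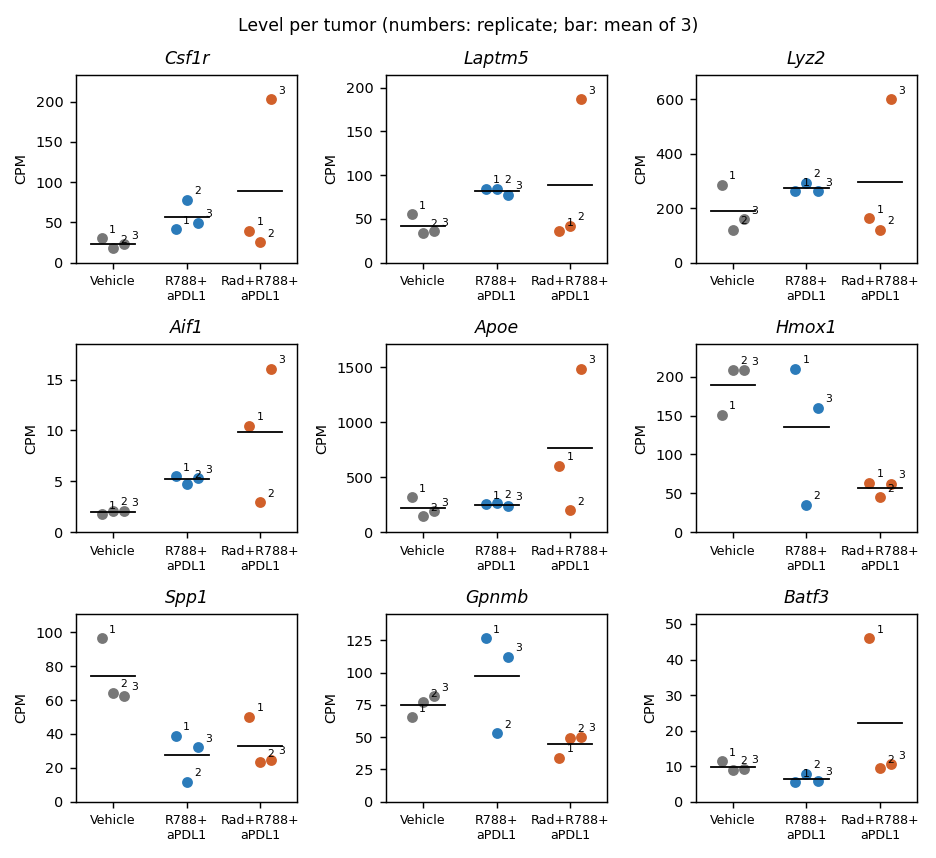
Level in CPM (linear axis from 0) of 9 of the genes in each tumor, by group. Numbers beside the points are replicates and bars are the means of 3 tumors. Csf1r, Laptm5, Lyz2 and Apoe peak in irradiated tumor 3, Spp1 is highest in the 3 vehicle tumors, Hmox1 is low in all irradiated tumors, and Batf3 peaks in irradiated tumor 1.

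The lysosome, lysozyme and NADPH oxidase genes had the highest class median in R788 + anti-PDL1 tumors, with a log2 fold change of 1.30 and 7 of 8 higher. Lyz2 (ENSMUSG00000069516.8, chromosome 10, 117277331 to 117282321, minus strand) was at 285, 121 and 159 CPM in vehicle tumors, 261, 293 and 263 CPM in R788 + anti-PDL1 tumors, and 163, 120 and 600 CPM in irradiated tumors. Vehicle tumor 1 was as high as the R788 + anti-PDL1 tumors, so the groups overlapped, and the log2 fold change was 0.53 ± 0.56 (adjusted p = 0.790). Mpeg1, which encodes the pore-forming protein perforin-2 of macrophages, was at 46.4, 22.9 and 24.6 CPM in vehicle, 102, 60.2 and 85.1 CPM in R788 + anti-PDL1, and 23.5, 35.5 and 139 CPM in irradiated tumors. The R788 + anti-PDL1 tumors lay above vehicle without overlap, a 2.64-fold fitted difference (adjusted p = 0.415).

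Of the oxidase subunits, Ncf4 (p40phox) had the lowest adjusted p of all members in this comparison, with a log2 fold change of 1.73 ± 0.55 (adjusted p = 0.230), on 33, 22 and 24 counts in the vehicle tumors, 89, 185 and 66 counts in the R788 + anti-PDL1 tumors and 33, 106 and 174 counts in the irradiated tumors. Cybb, the catalytic subunit gp91phox, was at 5.75 to 8.78 CPM in vehicle and 12.1 to 22.9 CPM in R788 + anti-PDL1 tumors, without overlap. Ctss averaged 34.3 ± 8.56, 56.6 ± 8.60 and 95.0 ± 81.2 CPM in the 3 groups. Ncf1 (p47phox), by contrast, averaged 14.2 ± 6.43 and 13.9 ± 3.35 CPM with a log2 fold change of -0.03 ± 0.40 (adjusted p = 0.988), and its sign was kept in only 6 of 14 alternative fits.

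The highest log2 fold change of all members belonged to Lyz1, the lysozyme of the intestinal Paneth cell, which lies 5476 bp from Lyz2 and has a transcript 92.0% identical to it, so that reads may be split uncertainly between them. Its counts were 15, 17 and 27 in vehicle tumors, 22, 414 and 96 in R788 + anti-PDL1 tumors, and 4, 12 and 95 in irradiated tumors. R788 + anti-PDL1 tumor 2 stood alone, and there Lyz1 amounted to 5.40% of Lyz2 against 0.181% to 1.498% in the other tumors. The log2 fold change of 2.75 ± 1.14 (adjusted p = 0.384) was 1.26 without that tumor.

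The next highest log2 fold changes shared that tumor. Lyve1, a hyaluronan receptor of perivascular macrophages and of lymphatic endothelium, had 20, 27 and 33 counts in vehicle tumors, 14, 350 and 92 counts in R788 + anti-PDL1 tumors, and 0, 3 and 80 counts in irradiated tumors. The R788 + anti-PDL1 tumors thus spanned the vehicle range, and the log2 fold change was 2.10 ± 1.37 (adjusted p = 0.635) and 0.67 without tumor 2. Flt3, the receptor of dendritic cell progenitors, had 2, 5 and 2 counts, then 5, 28 and 15, then 0, 2 and 14, and its log2 fold change of 2.04 ± 1.07 (adjusted p = 0.531) rests on these few counts. Vsig4, a complement receptor of resident macrophages, and Clec9a, a receptor of cross-presenting dendritic cells, were also highest in that tumor, with 20 and 17 counts. Folr2, a folate receptor of resident macrophages, was at 13.9 CPM in that tumor and 21.3 CPM in irradiated tumor 3, against 1.18 to 6.93 CPM in the rest.

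In the same R788 + anti-PDL1 tumor 2, 7 endothelium markers summed to 121 CPM against 35.6 to 67.8 CPM in the other 8 tumors. The 4 lymphatic endothelium markers summed to 22.5 CPM there, and to 22.7 to 31.3 CPM in vehicle, 8.42 to 22.5 CPM in R788 + anti-PDL1 and 26.5 to 31.5 CPM in irradiated tumors. Within the R788 + anti-PDL1 group, tumor 2 was the highest in both Lyve1 and these markers. The part of endothelium in the Lyve1 and Stab1 levels was not tested.

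Spp1, Batf3 and Hmox1 had the lowest log2 fold changes in R788 + anti-PDL1 tumors. Spp1 (ENSMUSG00000029304.14, chromosome 5, 104435118 to 104441050, plus strand), which encodes the secreted matrix protein osteopontin, stood at 96.6, 64.3 and 62.7 CPM in vehicle tumors, 38.9, 11.9 and 32.1 CPM in R788 + anti-PDL1 tumors, and 50.2, 23.3 and 24.8 CPM in irradiated tumors. All 6 treated tumors lay below all 3 vehicle tumors. The log2 fold change was -1.43 ± 0.45 for R788 + anti-PDL1 (adjusted p = 0.234) and -1.19 ± 0.45 for the irradiated group (adjusted p = 0.334), both against the same vehicle tumors, and it kept its sign in all 14 alternative fits of each.

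Batf3, a transcription factor of cross-presenting dendritic cells, was at 11.3, 8.98 and 9.26 CPM in vehicle tumors, 5.42, 7.91 and 5.90 CPM in R788 + anti-PDL1 tumors, and 46.0, 9.44 and 10.5 CPM in irradiated tumors. The R788 + anti-PDL1 tumors lay below both other groups, and irradiated tumor 1 held 624 counts against 123 to 231 in the rest. The log2 fold change of R788 + anti-PDL1 over vehicle was -0.62 ± 0.56 (adjusted p = 0.745). Of 8 other dendritic cell genes tested, 6 were higher in the same comparison, with a median of 0.38, and 0 passed the test.

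Hmox1 (ENSMUSG00000005413.8, chromosome 8, 75093621 to 75100589, plus strand), which breaks down heme, was at 151, 209 and 208 CPM in vehicle tumors, 210, 35.4 and 160 CPM in R788 + anti-PDL1 tumors, and 63.5, 45.3 and 62.1 CPM in irradiated tumors. R788 + anti-PDL1 tumor 2 was below all other tumors, while tumors 1 and 3 were within or next to the vehicle range. The log2 fold change was -0.48 ± 0.51 (adjusted p = 0.787) in this comparison.

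The second comparison set the irradiated tumors against vehicle, and so covers radiation, R788 and anti-PDL1 together. Again no member passed the edgeR test, where 0.0439% of all genes did, and the lowest adjusted p was 0.174, for Aif1. At an unadjusted p under 0.05, 13 members were higher and 3 lower, against 7.71% and 5.51% of all genes. DESeq2 called 8 of the 32 members to which it gave an adjusted p, where it called 3.16% of the genes it tested. Of these, Aif1, Ncf4, Ms4a7, Stab1, Pld4, Lst1 and Apoe were higher and Hmox1 was lower (adjusted p from 0.00136 to 0.0414). With limma-voom 0 members were called, where it called 0.0753% of all genes. As in the other comparison, 30 of the 35 had a higher fitted level, here against 52.9% of all genes, and the median log2 fold change was 1.08 (2.12-fold) against 0.05.

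This median rested on 1 tumor. Without irradiated tumor 3 it was -0.10, with 15 members higher and 20 lower, and without irradiated tumor 1 it was 1.49, with 32 higher and 3 lower. All 3 irradiated tumors lay above all vehicle tumors for 2 members only, Aif1 and Ncf4, where 9.27% of all genes did so, and below them for 3, Gpnmb, Spp1 and Hmox1, where 11.2% did.

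**Figure D3:**
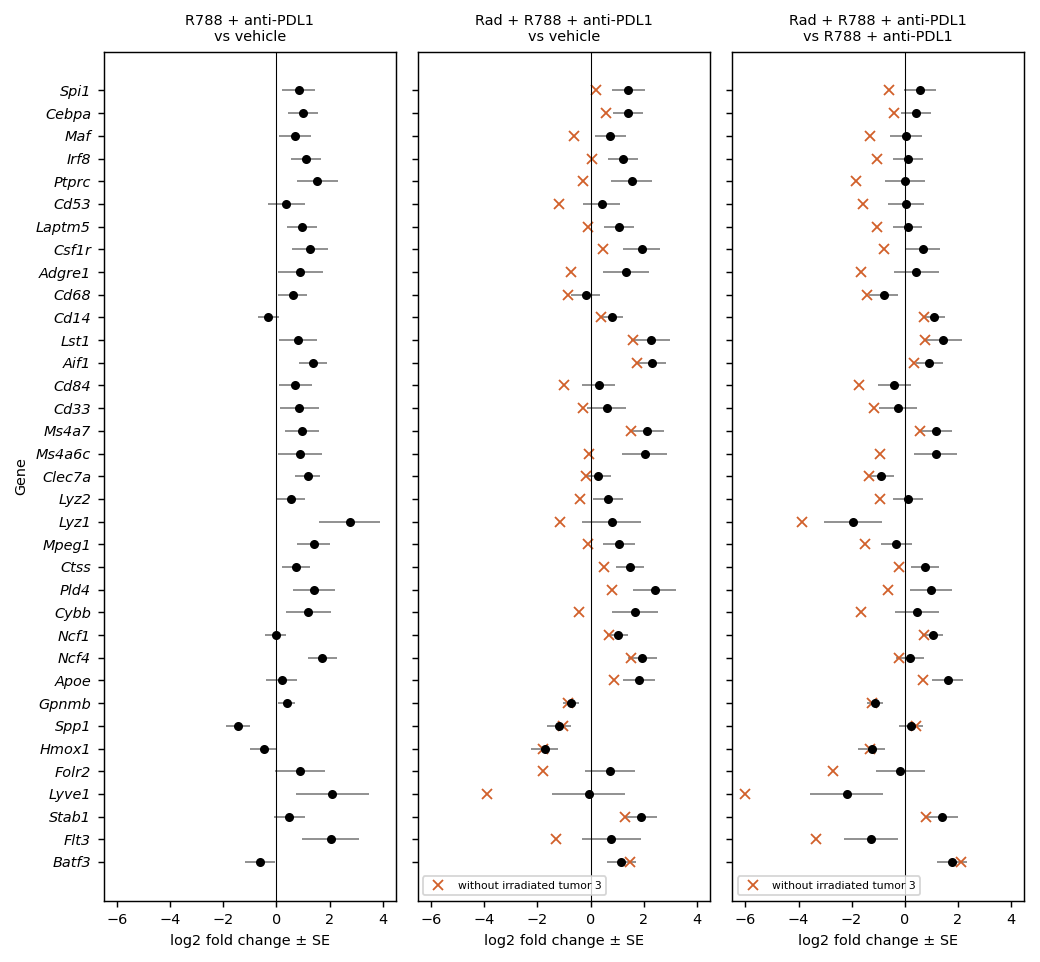
Fitted log2 fold change with its SE for the 35 tested genes in the 3 comparisons, black points, and the value when irradiated tumor 3 was left out, orange crosses. In the irradiated comparisons most crosses lie to the left of their points. Those of Batf3 lie to the right, at 1.48 against 1.154 over vehicle and 2.11 against 1.77 over R788 + anti-PDL1. Batf3 rested on irradiated tumor 1. Without that tumor (not drawn) it was 0.050 over vehicle and 0.65 over R788 + anti-PDL1.

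Irradiated tumor 3 held the highest level of 26 of the 35 members (74.3%), where it held the highest level of 9.12% of all genes. Its level exceeded that of the next tumor by 1.12-fold (Ncf4) to 5.07-fold (Ms4a6c), with a median of 2.02-fold. It lay above the vehicle range for 30 members, while irradiated tumor 2 did so for 2 and irradiated tumor 1 for 13, where 28.6%, 26.8% and 39.0% of all genes did so in the same 3 tumors. The 13 members of irradiated tumor 1 (37.1%) were thus close to its share over all genes. The ratio of the highest to the lowest tumor had a median of 1.76 in vehicle, 1.70 in R788 + anti-PDL1 and 5.90 in irradiated tumors over the members without a 0 in the group (35, 35 and 33), against 1.39, 1.4003 and 1.97 over all genes.

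Some markers of other leukocytes were also high in irradiated tumor 3. T cell markers summed to 44.4 CPM there, compared with 6.49 CPM in irradiated tumor 1 and 10.96 CPM in irradiated tumor 2. Of the neutrophil markers, Csf3r was at 13.7 CPM there and at most 3.28 CPM in the other 8 tumors, whereas S100a8 and S100a9 were at 1.005 and 1.19 CPM there, below vehicle tumors 2 and 3, and 2 of the 10 were at 0 in all tumors. The 15 other pan-myeloid genes, among them Tyrobp, Fcer1g, Itgam and Lcp1, summed to 661 CPM in it against 158 to 315 CPM in the other 8 tumors. The 18 other macrophage genes, among them the C1q genes, Mrc1 and Mertk, summed to 1308 CPM in it against 248 to 488 CPM in the rest. Neuroblast markers, led by Hand2 and Mycn, summed to 622 CPM, within the 490 to 968 CPM of the other tumors. The part of these cells in the members' levels was not tested.

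Pld4 and Lst1 joined Aif1 as the highest log2 fold changes over vehicle, at 2.41 ± 0.82 and 2.261 ± 0.73 (adjusted p = 0.300 and 0.283). Pld4, an endolysosomal exonuclease of nucleic acids, was at 6.57, 4.94 and 5.48 CPM in vehicle tumors, 7.45, 24.4 and 13.6 CPM in R788 + anti-PDL1 tumors, and 14.2, 5.68 and 70.5 CPM in irradiated tumors. Irradiated tumor 2 was within the vehicle range, and without irradiated tumor 3 the log2 fold change was 0.80.

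Apoe (ENSMUSG00000002985.16, chromosome 7, 19696109 to 19699188, minus strand) was at 320, 146 and 188 CPM in vehicle tumors, 252, 261 and 240 CPM in R788 + anti-PDL1 tumors, and 604, 201 and 1486 CPM in irradiated tumors. It was high in irradiated tumors 1 and 3, and the R788 + anti-PDL1 tumors were within the vehicle range. Its log2 fold change in the irradiated group was 1.81 ± 0.60 (adjusted p = 0.291), and 0.88 without irradiated tumor 3. Stab1, a scavenger receptor of resident macrophages and sinusoidal endothelium, was also high in irradiated tumors 1 and 3. It was at 43.3, 24.6 and 25.5 CPM in vehicle, 39.4, 53.2 and 38.4 CPM in R788 + anti-PDL1, and 127, 25.8 and 197 CPM in irradiated tumors. Unlike Apoe, Stab1 exceeded the vehicle range in R788 + anti-PDL1 tumor 2. Its log2 fold change was 1.904 ± 0.59 (adjusted p = 0.271) and was 1.29 without irradiated tumor 3.

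At the low end of the same comparison stood Hmox1, Spp1 and Gpnmb, all of the class of lipid, matrix and heme genes that tumor macrophages express. Hmox1 had a log2 fold change of -1.73 ± 0.52 (adjusted p = 0.265), ranging from -1.86 to -1.60 over the alternative fits. Gpnmb, a lysosomal glycoprotein of lipid-laden macrophages, was at 65.4, 77.2 and 81.6 CPM in vehicle tumors, 127, 52.8 and 112 CPM in R788 + anti-PDL1 tumors, and 34.0, 49.5 and 50.4 CPM in irradiated tumors. The 3 irradiated tumors lay below all others, and the log2 fold change was -0.74 ± 0.32 (adjusted p = 0.365). These 3 genes were low in irradiated tumor 3 as well, where most members were at their highest.

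Radiation added to R788 + anti-PDL1 was assessed by comparing the irradiated with the R788 + anti-PDL1 tumors. No member passed the edgeR test, where 0.00628% of all genes (a single gene) did, and the lowest adjusted p was 0.220, for Gpnmb. At an unadjusted p under 0.05, 5 members were higher and 2 lower, against 11.7% and 6.65% of all genes, and limma-voom called 0 members, where it called 0.0502% of all genes. The fitted level was higher for 24 members and lower for 11, against 52.5% of all genes higher, and the median log2 fold change was 0.21. Without irradiated tumor 3 the median was -1.06, with 9 higher and 26 lower. All irradiated tumors lay above all R788 + anti-PDL1 tumors for 1 member, Batf3, where 14.2% of all genes did so, and below them for 1, Gpnmb, where 13.2% did.

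DESeq2 called 2 of the 30 members to which it gave an adjusted p, where it called 4.02% of the genes it tested. They were Gpnmb (adjusted p = 0.0390) and Batf3 (adjusted p = 0.0405). In the edgeR fit the log2 fold change was -1.12 ± 0.32 for Gpnmb (adjusted p = 0.220) and 1.77 ± 0.57 for Batf3 (adjusted p = 0.222). Batf3 was 0.65 without irradiated tumor 1, whereas Gpnmb ranged from -1.42 to -0.89 over all alternatives. The highest 3 were completed by Apoe at 1.61 ± 0.60 and Lst1 at 1.45 ± 0.70 (adjusted p = 0.236 and 0.293), and the lowest 3 were Lyve1 at -2.18 ± 1.37, Lyz1 at -1.96 ± 1.09 and Flt3 at -1.26 ± 1.02 (adjusted p = 0.394, 0.345 and 0.497), which were highest in R788 + anti-PDL1 tumor 2.

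To compare the members with one another, each level was expressed as a percent of the summed level of the 15 other pan-myeloid genes in the same tumor. That sum was 158 to 237 CPM in vehicle, 267 to 315 CPM in R788 + anti-PDL1 and 160 to 661 CPM in irradiated tumors. On this scale the ratio of R788 + anti-PDL1 to vehicle had a median of 1.23 over the 35 members, and 20 of them lay within 1.5-fold of equality. The corresponding median was 1.13 for irradiated over vehicle, with 15 within 1.5-fold, and 0.854 for irradiated over R788 + anti-PDL1, with 17 within 1.5-fold. The 15 genes were not shown to be confined to myeloid cells, and mast, T and NK cell markers also differed between the groups. The sum may therefore not follow myeloid cells alone. Genes made by several cell types need not scale with this sum, and no test was attached to these ratios.

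Spp1 was among the members farthest from equality on this scale. It was 40.8%, 40.8% and 34.8% of the pan-myeloid sum in vehicle tumors, 14.6%, 3.77% and 11.3% in R788 + anti-PDL1 tumors, and 23.4%, 14.6% and 3.76% in irradiated tumors. The vehicle values did not overlap with either treated group, and the ratios of the means were 0.254 and 0.358. Hmox1 was 63.7%, 133% and 116% in vehicle, 78.7%, 11.2% and 56.4% in R788 + anti-PDL1, and 29.6%, 28.3% and 9.40% in irradiated tumors, with ratios of 0.469 and 0.216. The lowest Hmox1 and Spp1 shares both fell in R788 + anti-PDL1 tumor 2 and irradiated tumor 3, the tumors with the largest pan-myeloid sums. That sum is the divisor of each share, so a large sum lowers a share by itself. In CPM, R788 + anti-PDL1 tumor 2 was the lowest tumor for both genes, whereas irradiated tumor 3 lay above irradiated tumor 2 for both.

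On this scale 8 members lay above vehicle and 3 below without overlap in R788 + anti-PDL1 tumors. In irradiated tumors 8 lay above and 4 below. The share of all genes that did so on this scale was not computed, so these counts have no background. Aif1, Csf1r, Ctss and Ncf4 were above vehicle in both treated groups. For Csf1r the shares were 12.8%, 11.3% and 12.7% in vehicle, 15.5%, 24.9% and 17.5% in R788 + anti-PDL1, and 18.4%, 16.0% and 30.7% in irradiated tumors, with ratios of 1.57 and 1.77. Lyz2, the marker behind the myeloid Cre lines, stayed close to the sum, at 95.3% ± 22.6, 94.4% ± 2.95 and 80.6% ± 8.85 (SD, n = 3). Cd14 was lower in R788 + anti-PDL1 tumors, at 2.35% ± 0.395 against 4.53% ± 0.822 in vehicle, and Cd68 was 17.1% ± 4.21, 18.3% ± 7.56 and 9.91% ± 6.45.

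**Figure D4:**
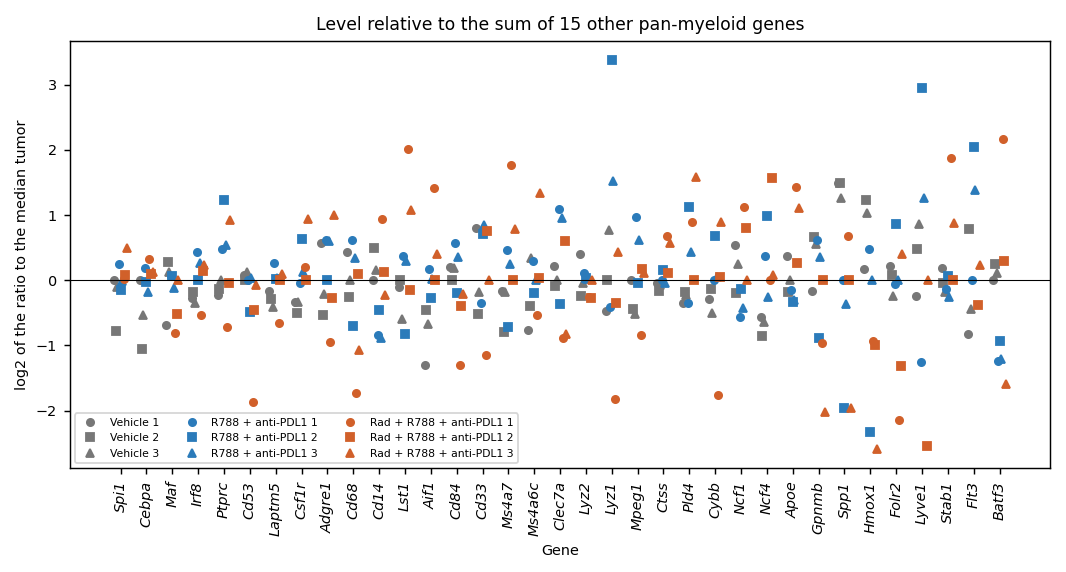
Level of each tested gene relative to the summed level of 15 other pan-myeloid genes, as the log2 of the ratio to the median of the 9 tumors (values at 0 are not drawn). Colours are groups and symbols are replicates. Vehicle tumors are the highest for Spp1, irradiated tumor 1 is the highest for 10 genes and the lowest for 16, and R788 + anti-PDL1 tumor 2 is far above the rest for Lyz1 and Lyve1.

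Irradiated tumor 1 was often at an extreme on this scale. It held the highest share for 10 members (Cebpa, Cd14, Lst1, Aif1, Ms4a7, Ctss, Ncf1, Apoe, Stab1 and Batf3) and the lowest for 16. The library was extreme in general, being the highest tumor in CPM for 30.4% of all genes and the lowest for 34.7%. The 10 genes had a median GC content of 53.1% and a median transcript length of 1525 bases, against 46.5% and 3336 bases for the 16. Across the 35 members the deviation of this library correlated with GC content at Spearman rho = 0.48 and with length at -0.19, and across all genes at 0.20 and -0.45. These correlations are over genes of 1 library and carry no p-value. The part of GC content and length in the values of irradiated tumor 1, Batf3 and Stab1 included, was not tested.

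Genes outside the 37 gave the setting of the myeloid signals. Of the 15 other pan-myeloid genes, 14 were higher in R788 + anti-PDL1 than in vehicle tumors, with a median log2 fold change of 0.62. Of these, 8 lay above vehicle without overlap, where 13.6% of all genes did. In the irradiated group 15 of 15 were higher with a median of 0.95, but 0 without overlap, where 9.27% of all genes were. Their sum was 215, 160 and 661 CPM in irradiated tumors 1 to 3, against 158 to 237 CPM in vehicle. Of 17 other macrophage genes tested, 15 and 13 were higher in the same comparisons, with medians of 0.56 and 1.03, and 5 and 1 were so without overlap. The sum of the macrophage list was 482, 266 and 1308 CPM in the irradiated tumors. None of these genes passed the edgeR test in either comparison. At an unadjusted p under 0.05 there were 0 in the first comparison, and 3 of 15 and 3 of 17 in the second. Of 6 monocyte genes, 4 and 5 were higher, and 0 passed the test.

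The ligand genes of the growth factor receptors were read as well. Csf1 was at 22.7, 13.9 and 17.4 CPM in vehicle tumors, 26.7, 20.4 and 25.9 CPM in R788 + anti-PDL1 tumors, and 15.7, 23.4 and 27.5 CPM in irradiated tumors. Its level in irradiated tumor 3 was thus close to that of R788 + anti-PDL1 tumors 1 and 3, while Csf1r was several times higher there. Il34, the second ligand of the receptor, and Flt3l, the ligand of FLT3, were between 1.01 and 10.1 CPM. Csf2 (granulocyte-macrophage colony-stimulating factor) and Csf3 (granulocyte colony-stimulating factor) were at most 1.10 CPM. Of the 3 ligand genes tested, 0 passed the test in any comparison.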

How the data were processed

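RNA-seq was analysed from 9 NB9464 tumors in 3 groups of 3. According to the study's methods and the labels, the authors aligned reads to mm10 with STAR 2.6.1d and deposited Salmon 1.4.0 estimated counts per gene symbol, as whole numbers. Rounding, gene summing and strand were not given in the sources used here, so members that overlap other annotated genes (Cebpa, Maf, Irf8, Ptprc, Csf1r, Ms4a6c, Ctss, Ncf1, Spp1, Folr2, Stab1, Flt3 and Clec9a) may share reads with them. The labels name macrophages as RNA source in the extraction text and whole tumor as tissue, and give a paired-end NovaSeq run where the methods give a single-read HiSeq run.

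The tested values were these estimated counts with edgeR 4.0.16, quasi-likelihood, all 9 libraries in 1 fit, TMM factors, filterByExpr with a minimum count of 10, and Benjamini-Hochberg adjustment over 15931 genes, with calls at an adjusted p under 0.05. DESeq2 1.42.0 and limma-voom (limma 3.58.1) were alternatives, beside other normalizations, filters, library subsets and a replicate block. SE was computed from the log2 fold change and its F statistic. Scripts were tested on simulated data. Gene positions, exon lengths and GC content came from GENCODE (GRCm38). CPM was divided by exon length only to compare genes. Motifs were searched on both strands.

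Values in every tumor are given for members called in a comparison by DESeq2 or by edgeR on 6 libraries (none was called by edgeR on all 9), the 3 highest and 3 lowest log2 fold changes of each, and the most abundant member per length of each role class. Other members are given by means and ranges, and any further one named was chosen after its values were seen. The 37 members, gene lists and rules were chosen with earlier results of these data known. Labels give groups the same replicate numbers but do not say that they mark shared mice or batches.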

Additional observations from a re-analysis of the deposited data

How the results depend on the processing

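Directions of the member genes against vehicle held best for R788 + anti-PDL1, where 33 of 35 kept their sign in every alternative, against 18 of 35 for the irradiated group and 15 of 35 for irradiated against R788 + anti-PDL1. Hmox1, Spp1 and Gpnmb lower and Aif1, Ncf4, Stab1, Lst1, Ms4a7, Apoe and Pld4 higher in irradiated than vehicle tumors were among those 18. Calls were few under edgeR at this spread. DESeq2 called 726, 554 and 644 genes in the 3 comparisons, in the order used in the report. It called 1, 8 and 2 of the 33, 32 and 30 members to which it gave an adjusted p. Without the filter on low counts edgeR called 199, 70 and 24 genes, and 0 members. With only the 6 libraries compared it called 594, 1 and 0 genes, and 5, 0 and 0 members. limma-voom called 111, 12 and 8 genes and 0 members. The main counts were 108, 7 and 1 genes. Leaving out single tumors gave 0 to 75, 1 to 57 and 0 to 21 genes, the highest counts without vehicle tumor 1 and, for the last 2, without irradiated tumor 1, and it called 0 members. The median log2 fold change of the members then ranged from 0.69 to 1.24, from -0.10 to 1.49 and from -1.06 to 0.53, the lowest of the last 2 without irradiated tumor 3, and the causes of these shifts were not tested. RLE or upper-quartile normalization called 0 members.

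Same-numbered samples of different groups deviated together at r between -0.05 and 0.23, and 5 of 9 samples correlated best with their own number. Not every same-numbered pair was over 0.1, so the numbers were not treated as pairs. A replicate block gave 0, 3 and 0 genes, 0 members, and median log2 fold changes of 0.93, 0.86 and -0.16. With it Ncf1 was 0.070 in the first comparison, and in the second Cd53 was -0.055, Cd84 -0.0041 and Folr2 -0.056. In the third, Maf was -0.36, Irf8 -0.16, Ptprc -0.56, Cd53 -0.40, Laptm5 -0.17, Adgre1 -0.16, Lyz2 -0.16 and Cybb -0.18.

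Other turns of sign were as follows. Ncf1 over vehicle in R788 + anti-PDL1 tumors was 0.072 with limma-voom, 0.054 with upper-quartile normalization, 0.023 with at least 10 counts in every library and 0.011 with only the 6 libraries. In irradiated against vehicle tumors, limma-voom gave Cd53 -0.13, Cd84 -0.052, Folr2 -0.27 and Flt3 -0.053. In irradiated against R788 + anti-PDL1 tumors it gave Maf -0.42, Irf8 -0.22, Ptprc -0.61, Cd53 -0.53, Laptm5 -0.29, Adgre1 -0.38, Lyz2 -0.27 and Cybb -0.37, with a median over the members of -0.27. There Ptprc was also -0.0010 with DESeq2, -0.0046 with upper-quartile normalization, -0.0026 without the filter and -0.0045 with at least 10 counts in every library.

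Leaving out single tumors turned the sign of Apoe (-0.022 to 0.61) and Ncf1 (-0.30 to 0.40) in the first comparison. In the second the ranges that crossed 0 were Adgre1 -0.75 to 1.99, Cd33 -0.29 to 1.38, Cd53 -1.19 to 0.93, Cd68 -0.83 to 0.25, Cd84 -1.01 to 0.76, Clec7a -0.17 to 0.64, Cybb -0.43 to 2.21, Flt3 -1.31 to 1.32, Folr2 -1.80 to 1.28, Laptm5 -0.10 to 1.49, Lyve1 -3.90 to 0.52, Lyz1 -1.14 to 1.32, Lyz2 -0.42 to 1.08, Maf -0.61 to 1.16, Mpeg1 -0.089 to 1.52, Ms4a6c -0.057 to 2.54 and Ptprc -0.29 to 2.04. In the third they were Adgre1 -1.65 to 0.93, Cd33 -1.15 to 0.19, Cd53 -1.56 to 0.53, Cd84 -1.72 to 0.031, Cebpa -0.40 to 0.78, Csf1r -0.79 to 1.106, Ctss -0.21 to 1.16, Cybb -1.63 to 0.99, Folr2 -2.70 to 0.35, Irf8 -1.07 to 0.50, Laptm5 -1.06 to 0.50, Lyz2 -0.95 to 0.49, Maf -1.31 to 0.43, Mpeg1 -1.48 to 0.10, Ms4a6c -0.93 to 1.65, Ncf4 -0.22 to 0.67, Pld4 -0.62 to 1.51, Ptprc -1.83 to 0.48, Spi1 -0.61 to 0.97 and Spp1 -0.18 to 0.57. Of these turns, 15 in each of the last 2 comparisons came without irradiated tumor 3.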

Other observations

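Marker genes of other cells differed between the tumors as well. Keratinocyte markers (Krt5, Krt14 and Krt10) summed to 4.89 to 7.73 CPM in vehicle tumors, 1.896 to 63.3 CPM in R788 + anti-PDL1 tumors and 46.6 to 75.2 CPM in irradiated tumors, most of it Krt5, whereas Krt14 had 4 to 43 counts in vehicle tumors and at most 2 in treated tumors. Fibroblast markers summed to 2104 to 2566, 2523 to 3253 and 1078 to 2529 CPM in the same order, and irradiated tumor 1 was the lowest. Skeletal muscle markers summed to 17.1 CPM in irradiated tumor 1 and to 3.20 to 5.23 CPM in the rest. B cell markers were at most 4.47 CPM, and adipocyte markers at most 0.861 CPM. Of the plasma cell markers, Jchain had at most 2 and Mzb1 at most 9 counts in each tumor, while Sdc1, which other cells also express, was at 110 to 167 CPM. The only gene of all lists to pass the edgeR test was Isl1, a sympathetic transcription factor, which had 0 counts in the 3 vehicle tumors, 48 to 80 in the R788 + anti-PDL1 tumors (adjusted p = 0.0344) and 14 to 27 in the irradiated tumors (adjusted p = 0.0605).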
